A study of Homo sapiens with 17 samples.

Results

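The genes described here are named for proteins of the mitochondrial ribosome. They were taken as all protein-coding genes whose symbol is MRPL or MRPS followed by a number, with an optional letter. The rule gave 78 genes, of which 77 had an identifier in the count files, out of 63677 genes counted, 19376 of them protein-coding. The 77 were 48 MRPL genes, named for the large subunit, and 29 MRPS genes, named for the small subunit. MRPL45 was not analysed here, and MRPS21 was listed at 0 in all 15 libraries under its identifier, which is not read as absence of its RNA.

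The mitochondrial ribosome translates the few mRNAs encoded by mitochondrial DNA, all of which specify subunits of the respiratory chain and the ATP synthase. Its RNAs come from mitochondrial DNA, while its proteins are encoded in the nucleus, made in the cytosol and imported. The small subunit holds the mRNA and the decoding centre, and the large subunit joins amino acids at the peptidyl transferase centre. Some of the proteins have counterparts in bacterial ribosomes and others are found in mitochondria alone. By the unified names listed among the RefSeq synonyms, 44 of the 77 were of the kind shared with bacteria, 30 were specific to mitochondria and 3 had no such name. Those 3 were MRPS24, MRPS28 and MRPS36, which are members by their symbols alone. The symbols do not follow the subunits in every case: MRPS30 and MRPS18A carry the unified names mL65 and mL66, of the large subunit.

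RNA-seq read counts came from Karpas-422 and WSU-DLCL2, established human B cell lymphoma lines, in 5 groups of 3 libraries. Karpas-422 was untreated or treated for 48 h with A-485, an inhibitor of the catalytic activity of the acetyltransferases p300 and CBP; WSU-DLCL2 was untreated or treated with A-485 in the same way. The last group held 3 WSU-DLCL2 clones whose label is BCL11A knockout, with no unedited clone beside them, so the effects of cloning and of editing cannot be told apart. BCL11A is a zinc-finger transcription factor active in B cells. Nothing in the labels says that libraries of one line came from separate cultures, so p-values rest on a spread between libraries that may be of technical origin.

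BCL11A, the gene targeted in the clones, had 58.9, 68.3 and 53.0 CPM in clones 1, 2 and 3 and 46.9, 46.2 and 72.2 CPM in untreated replicates 1, 2 and 3 (CPM, counts scaled to a common total of gene counts, here with TMM factors), with a log2 difference of 0.13 ± 0.21 (SE). Its RNA was thus not lower in the clones, which are called by their label. The labels of untreated WSU-DLCL2 replicate 3 conflict: its title says untreated and its treatment entry names A-485. That library differed from replicates 1 and 2 by a chi-square of 201 and 212 per gene, against 2.66 between those 2, so the clone comparison is given with and without it. The libraries were of 2 kinds. All Karpas-422 libraries and the A-485 libraries of WSU-DLCL2 held 6689320 to 8897051 gene counts, with 43.0% to 55.5% of reads not aligned uniquely. The untreated WSU-DLCL2 and clone libraries held 21233752 to 37286727, with 7.73% to 9.24% not unique. All 10 B cell markers examined were detected in every group, at a summed 9770 to 10521 CPM in Karpas-422 and 3046 to 7509 CPM in WSU-DLCL2. T and NK cell markers summed to 549 to 682 CPM in Karpas-422, mostly CD3G, with CD2, CD8A and GNLY at 0, and to at most 17.9 CPM in WSU-DLCL2. Epithelial and fibroblast markers summed to 383 to 431 CPM in untreated and 186 to 203 CPM in treated Karpas-422, nearly all DCN, with EPCAM, KRT8 and COL1A1 at 0; the part of these genes' reads in the results was not tested. Myeloid markers summed to at most 8.47 CPM in any library. The 13 mRNAs encoded by mitochondrial DNA were listed at 0 in all 15 libraries, so the products of mitochondrial transcription were not measured here.

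In Karpas-422, most mitochondrial ribosomal protein genes were lower after A-485 (counts of bulk RNA, in which fewer cells expressing a gene and less RNA per cell cannot be told apart). Of the 71 members with enough counts to be tested, 47 were called lower and 10 higher by edgeR's quasi-likelihood test at an adjusted p under 0.05, and 14 were not called. Of all 11846 genes tested, 33.7% were called lower and 37.6% higher, so the members' shares of 66.2% lower and 14.1% higher stood above and below the background. The median log2 fold change of the tested members was -0.87, against 0.08 for all genes. At least 2-fold lower were 29 members (background 11.8%) and at least 2-fold higher 5 (background 22.7%). The A-485 libraries lay wholly below the untreated ones for 48 members (background 34.9%) and wholly above for 11 (background 39.8%). Scaling by library size alone raised the median of all genes by 0.40 on the log2 scale. It left 38 members lower and 17 higher, against 19.3% and 54.5% of all genes, and a members' median of -0.47. Relative to the median of all genes, the members' median was -0.96 with TMM scaling and -0.95 with library sizes alone. A change of scaling shifts all genes by nearly the same amount, so this difference was bound to stay nearly the same.

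Genes of both subunits were among the falls. Of 44 tested genes with MRPL symbols 30 were lower and 6 higher, with a median log2 fold change of -0.89. Of 27 with MRPS symbols 17 were lower and 4 higher, with a median of -0.80. The MRPS genes include MRPS30 and MRPS18A, which are of the large subunit by their unified names, and both were lower. Of the genes with bacterial counterparts 28 of 39 were lower and 5 higher, and of the mitochondria-specific genes 17 of 29 were lower and 5 higher. Of the 3 without a unified name, MRPS28 and MRPS36 were lower and MRPS24 was not called. MRPL36 (-1.91 ± 0.25), of the large subunit, and MRPS34 (-1.69 ± 0.18), specific to mitochondria and of the small subunit, were among the deepest falls but stayed under 10 CPM.

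**Figure D1:**
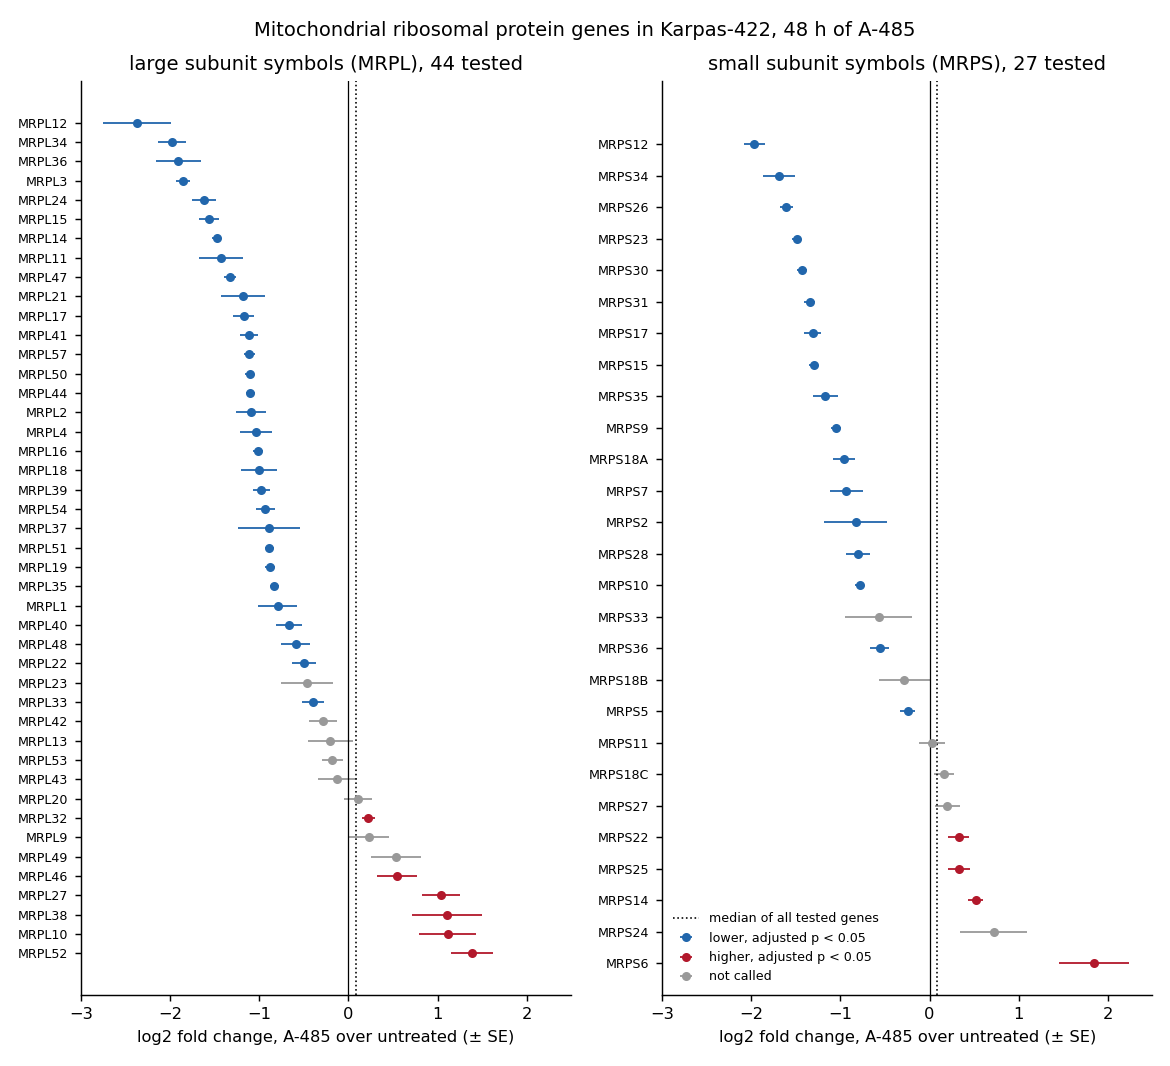
Log2 fold change (± SE) of each tested member in Karpas-422, A-485 over untreated, 3 libraries a group, with TMM scaling; large-subunit symbols are on the left and small-subunit symbols on the right, and the dotted line is the median of all tested genes. Falls with an adjusted p under 0.05 (47 members) outnumber rises (10) in both panels; with library sizes alone the numbers are 38 and 17, and MRPL33 and MRPS5 turn from called falls to values above 0.

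Among the large-subunit falls, MRPL3, whose bacterial counterpart lies close to the peptidyl transferase centre, stood at 97.9, 90.5 and 96.9 CPM untreated and at 24.7, 28.5 and 25.4 CPM with A-485. The groups were far apart, and the log2 fold change was -1.86 ± 0.08 with an adjusted p of 1.5e-10 by edgeR. MRPL34, a small protein with a bacterial counterpart, had 20.4, 20.4 and 25.8 CPM untreated against 4.99, 6.18 and 5.56 CPM with A-485, a log2 fold change of -1.98 ± 0.15. MRPL24, the counterpart of a bacterial protein placed near the mouth of the exit tunnel, had 22.9, 20.7 and 25.3 CPM against 8.10, 7.35 and 6.98 CPM (log2 fold change -1.62 ± 0.14). None of these groups overlapped.

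MRPL14, which faces the small subunit, was among the most highly counted: it stood at 323, 330.4 and 331 CPM untreated and 122, 115 and 117 CPM with A-485. The fall was -1.48 ± 0.05 in log2 units, with an adjusted p of 1.4e-11 by edgeR. MRPL15, another protein shared with bacteria, had 35.8, 38.3 and 39.5 CPM against 11.1, 13.6 and 13.5 CPM (log2 fold change -1.57 ± 0.11). MRPL41, specific to mitochondria, had 47.3, 50.4 and 53.8 CPM against 25.6, 23.8 and 20.4 CPM (log2 fold change -1.12 ± 0.10). In each of the 3 genes every treated library lay below every untreated one.

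MRPL12 forms the flexible stalk that recruits translation factors and has also been described as a partner of the mitochondrial RNA polymerase POLRMT. It had the lowest fold change of all members, -2.37 ± 0.38, but on few counts: 79 in the untreated libraries together and 22 in the treated ones. Its values were 3.36, 2.88 and 5.91 CPM untreated and 0.888, 0.392 and 1.01 CPM with A-485, and 68.2% of its exonic length is shared with another annotated gene. MRPL11 and MRPL10 belong to the base of the same stalk and did not move together. MRPL11 fell (log2 fold change -1.43 ± 0.25). MRPL10 rose from 2.42, 1.21 and 1.01 CPM to 3.88, 2.74 and 3.84 CPM (log2 fold change 1.11 ± 0.32). Both were at low counts. In untreated Karpas-422 MRPL10 and MRPL11 had 0.49 and 2.24 CPM per kilobase of exonic length. In the deeper untreated WSU-DLCL2 libraries they had 21.8 and 17.8. The part of this in their opposite directions was not tested.

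Among the small-subunit falls, MRPS12, the protein of the decoding centre, stood at 29.8, 31.5 and 31.9 CPM untreated and 7.77, 8.04 and 7.99 CPM with A-485. The spread within groups was small beside the fall, -1.97 ± 0.12 in log2 units (adjusted p = 3.0e-09 by edgeR's test). MRPS23, which is specific to mitochondria, had 376, 402 and 404 CPM against 139, 139 and 144 CPM, a log2 fold change of -1.49 ± 0.05. MRPS26, another mitochondria-specific protein, had 267, 228 and 259 CPM against 89.0, 80.8 and 78.4 CPM, a log2 fold change of -1.61 ± 0.07. MRPS2, a protein shared with bacteria, had 1.88, 1.51 and 1.35 CPM untreated and 1.22, 0.784 and 0.708 CPM with A-485 and was only just called, at -0.83 ± 0.35 (adjusted p = 0.048, edgeR); leaving out A-485 replicate 2 or 3 or any untreated library raised its adjusted p to between 0.057 and 0.19.

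MRPS10, a protein of the small-subunit head, held more counts than any other member in all 9 of the shallower libraries. It stood at 734, 792 and 764 CPM untreated and at 442, 455 and 434 CPM with A-485, a log2 fold change of -0.78 ± 0.05. The groups did not overlap. By level, of 49 members that reached 10 CPM in the higher group 37 were lower and 7 higher, against 47.3% lower and 34.2% higher of all genes at that level. Of the 22 weaker members 10 were lower, 3 were higher and 9 were not called, against 16.3% lower and 42.1% higher of all weaker genes. Across the 71 members Spearman's rho of the log2 fold change with the untreated mean CPM was -0.43, a value across genes of the same libraries.

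The S18 paralogs differed among themselves. MRPS18C, which carries the unified name bS18m, was not called: it had 17.3, 18.2 and 17.7 CPM untreated and 18.5, 19.9 and 21.0 CPM with A-485. Its log2 fold change was 0.16 ± 0.11, and with library sizes alone it was 0.57 and called (adjusted p = 0.00067 by edgeR). MRPS18B (mS40) had 1.75, 2.27 and 2.19 CPM untreated and 2.0, 1.37 and 1.72 CPM with A-485, and its log2 fold change of -0.28 ± 0.29 was not called. MRPS18A, which sits in the large subunit as mL66, fell from 20.8, 20.3 and 19.7 CPM to 10.5, 10.5 and 10.3 CPM, a log2 fold change of -0.96 ± 0.12. These differences between paralogs were not tested directly, and 47.0% of the exonic length of MRPS18A and 40.2% of that of MRPS18C is shared with another gene.

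Rises were fewer and smaller, and 7 of them passed the level of 10 CPM in the higher group. MRPL52, a mitochondria-specific protein, had 18.0, 9.84 and 7.43 CPM untreated and 29.7, 32.8 and 31.9 CPM with A-485, a log2 fold change of 1.39 ± 0.24. MRPL27, whose bacterial counterpart reaches into the peptidyl transferase centre, had 14.1, 7.72 and 6.58 CPM against 19.6, 20.5 and 19.4 CPM, a log2 fold change of 1.04 ± 0.21. MRPS14, of the small-subunit head, had 44.5, 40.4 and 36.5 CPM against 55.6, 59.6 and 59.0 CPM, a log2 fold change of 0.52 ± 0.09. In these 3 genes the groups did not overlap, but the untreated replicates were spread, with replicate 1 the highest.

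Untreated replicate 1 was the highest untreated library in all 10 members that rose and in 13 of the 47 that fell. MRPL46, a mitochondria-specific protein, rose by 0.54 ± 0.22 with overlapping groups, since its 19.6 CPM in untreated replicate 1 lay within the treated values of 21.2, 19.1 and 19.3 CPM. Without that replicate its log2 fold change was 0.95. MRPS25 overlapped for the same reason, with 180.1, 136 and 123 CPM untreated against 187, 188 and 178 CPM. MRPL46, MRPS25 and MRPS22 lost their calls when any 1 library other than untreated replicate 1 was left out, with adjusted p from 0.052 to 0.17 by edgeR. The number of members called higher fell from 10 to 6 without A-485 replicate 2, to 5 without untreated replicate 2 and to 6 without untreated replicate 3, while the number called lower stayed between 44 and 47.

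The remaining rises were MRPL32, MRPS22, MRPL38 and MRPS6. MRPL32, which is matured by the mitochondrial AFG3L2 protease, rose by 0.22 ± 0.07, and MRPS22 by 0.33 ± 0.12. MRPS6, the protein with the largest rise (log2 fold change 1.84 ± 0.39), went from 2.15, 0.606 and 0.675 CPM to 4.44, 3.14 and 5.46 CPM, on 24 counts untreated and 126 with A-485, and shares exons with SLC5A3. MRPL38 rose on 12 counts untreated and 38 with A-485.

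**Figure D2:**
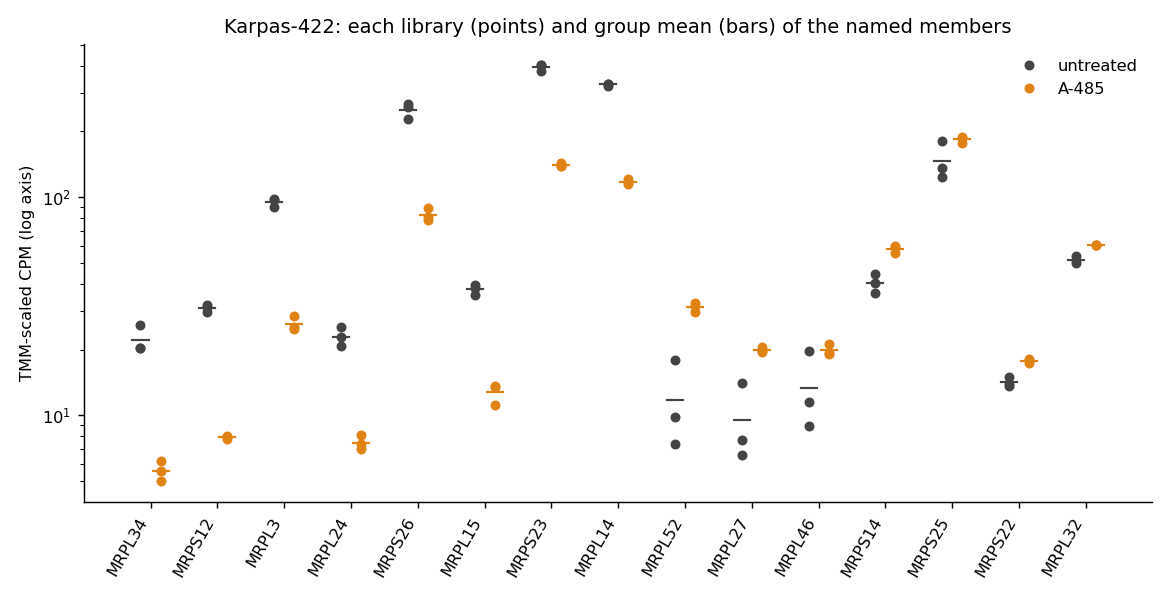
TMM-scaled CPM (log axis) of the members with the largest called falls (8, left) and rises (7, right) and 10 CPM or more in the higher Karpas-422 group; points are libraries, bars are means of 3. The A-485 points of the fallers lie far below the untreated ones. For MRPL52, MRPL27, MRPL46 and MRPS25 untreated replicate 1 lies apart from replicates 2 and 3. It reaches the A-485 points in MRPL46 and MRPS25 and stays below them in MRPL52 and MRPL27.

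The direction of a member varied with the number of transcripts annotated for its gene. All 8 tested members with a single annotated transcript fell, as did 18 of 22 with 2 to 4 transcripts and 18 of 29 with 5 to 9. With 10 or more transcripts, 3 of 12 fell and 3 rose. Of all tested genes in these 4 classes 34.8%, 46.8%, 37.7% and 21.9% fell, so with 10 or more transcripts the members' share of falls, 25%, was near that of all genes, of which 50.4% rose there. The members' medians in these 4 classes were -1.11, -1.03, -0.57 and -0.05, while those of all tested genes were 0.05, -0.22, -0.05 and 0.44, so the members' median lay below that of all tested genes in each class. Across the 71 members Spearman's rho of the log2 fold change with the number of transcripts was 0.50, against 0.18 across 11498 genes; these are values across genes of the same libraries, and genes are not replicates. By sharing of exons, 29 of 35 tested members that share no exon with another annotated gene fell and 3 rose. Among those that do share one, 18 of 36 fell and 7 rose. The shares of all genes with and without shared exons were not computed, so this split is not read as particular to the members. The share of reads without a unique alignment differed between the groups, at 54.5% to 55.5% untreated and 48.8% to 49.0% with A-485, and reads outside genes were 3.61% to 4.54% and 8.25% to 8.91%. The part of these features in the result was not tested.

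**Figure D3:**
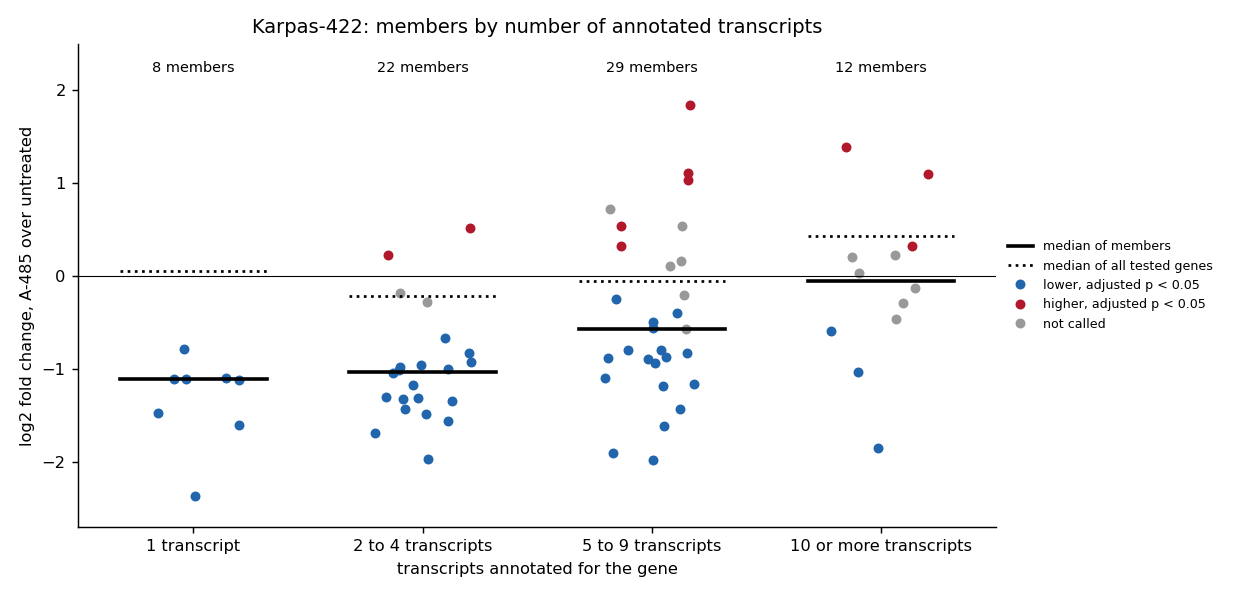
Log2 fold change of the tested members in Karpas-422 (points, with TMM scaling) by the number of transcripts annotated for the gene, with the members' median (solid line) and that of all tested genes in the class (dotted line). Members with 1 transcript all lie below 0, and those with 10 or more lie on both sides, with a median of -0.05; library sizes alone turn that last median to 0.35 and the others stay below 0.

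Promoters of the mitochondrial ribosomal genes were searched for letters bound by factors known for the control of mitochondrial genes. RefSeq windows of the 250 bases before the gene's start were at hand for 68 members and 15842 protein-coding genes. The ETS letters CCGGAAG, bound by the GABP factor among others, were present on either strand in 33.8% of the members' windows against 11.8% of all. The NRF1 motif, of the factor named nuclear respiratory factor, was in 10.3% against 7.65%, and YY1 letters (AAGATGGCG) in 4.41% against 0.751%. The E-box CACGTG, bound by MYC among others, was in 7.35% against 7.84%, and the TATA letters TATAAA in 2.94% against 9.24%. The median GC content was 60.4% for members and 62.4% for all. Of tested members with the ETS letters 13 of 20 fell and 3 rose, and of those without them 28 of 42 fell and 6 rose. Of 6 tested members with the NRF1 letters 5 fell, and of 3 with the YY1 letters 1 fell and 2 rose. A match is a description of letters and not a bound site.

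The 150 bases before the start of 5 members that fell and 2 that rose are shown, chosen after their values were seen, because they hold the searched letters, which are in capitals as CCGGAAG or its complement CTTCCGG (ETS), as CGCCATCTT or AAGATGGCG (YY1), as GCGCCTGCGC (NRF1) and as CACGTG. They are from RefSeq on GRCh38.p14, read 5′ to 3′ on the strand of the gene. The members that fell are MRPL3 at chr3:131502972-131503121 (minus strand), MRPS23 at chr17:57850045-57850194 (minus strand), MRPS26 at chr20:3045902-3046051 (plus strand), MRPS34 at chr16:1773135-1773284 (minus strand) and MRPL36 at chr5:1799838-1799987 (minus strand). The members that rose are MRPL27 at chr17:50373185-50373334 (minus strand) and MRPL52 at chr14:22829737-22829886 (plus strand). ETS letters stand close to the start in fallers such as MRPS23 and in MRPL27, which rose, and YY1 letters stand in MRPL36, which fell, and in MRPL52, which rose.
MRPL3: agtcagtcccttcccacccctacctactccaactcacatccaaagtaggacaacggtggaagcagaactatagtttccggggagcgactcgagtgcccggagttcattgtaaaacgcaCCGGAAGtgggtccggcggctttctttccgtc
MRPS23: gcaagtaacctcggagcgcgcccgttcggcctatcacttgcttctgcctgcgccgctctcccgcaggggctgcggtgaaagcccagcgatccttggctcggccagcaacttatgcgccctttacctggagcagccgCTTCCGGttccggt
MRPS26: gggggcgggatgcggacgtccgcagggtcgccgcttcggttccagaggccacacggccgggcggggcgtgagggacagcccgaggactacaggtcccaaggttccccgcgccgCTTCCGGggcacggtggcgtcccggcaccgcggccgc
MRPS34: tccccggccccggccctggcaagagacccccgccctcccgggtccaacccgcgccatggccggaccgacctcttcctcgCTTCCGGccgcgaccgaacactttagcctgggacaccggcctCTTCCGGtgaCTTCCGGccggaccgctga
MRPL36: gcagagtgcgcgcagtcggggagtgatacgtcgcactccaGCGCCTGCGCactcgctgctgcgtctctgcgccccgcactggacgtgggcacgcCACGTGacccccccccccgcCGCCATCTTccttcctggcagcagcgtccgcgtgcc
MRPL27: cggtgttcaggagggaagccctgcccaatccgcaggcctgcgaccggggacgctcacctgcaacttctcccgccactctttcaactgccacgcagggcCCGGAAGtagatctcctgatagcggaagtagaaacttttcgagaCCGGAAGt
MRPL52: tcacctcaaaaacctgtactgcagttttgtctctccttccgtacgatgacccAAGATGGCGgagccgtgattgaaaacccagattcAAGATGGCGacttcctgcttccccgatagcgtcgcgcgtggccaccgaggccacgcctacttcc

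The other genes of mitochondrial gene expression were mixed in Karpas-422, where 33.7% of all tested genes were lower and 37.6% higher. A list of 6 genes held mitoribosomal proteins with other symbols and OXA1L, the membrane insertase that docks at the ribosome's exit. Of these 4 fell, including GADD45GIP1 (log2 fold change -1.44 ± 0.13), and 1 rose. The riser was OXA1L (2.54 ± 0.21), so no ribosomal protein of this list was called higher. Of 28 assembly and rRNA modification factors 14 fell (50%) and 7 rose (25%), with a median log2 fold change of -0.27, and the RNA helicase DDX28 was at -1.54 ± 0.06. Of 18 translation factors and mRNA stability genes 8 fell (44.4%) and 6 rose (33.3%), not far from the shares of all genes, with a median of -0.20. The elongation factor TUFM was at -1.57 ± 0.06 and LRPPRC, which stabilises mitochondrial mRNAs, at -1.33 ± 0.07. The list of mitochondrial aminoacyl-tRNA synthetases also held GATB, GATC and QRSL1, which do not have synthetase symbols. Of its 18 tested genes 12 fell (66.7%), GATC among them, and 3 rose (16.7%), with a median of -0.59. Of 17 genes of mitochondrial transcription and DNA maintenance 8 fell (47.1%) and 5 rose (29.4%), with a median of -0.19. The medians of the assembly, translation and transcription lists turned to 0.13, 0.20 and 0.21 with library sizes alone. Relative to the median of all genes they were -0.35, -0.28 and -0.28 on both scales, a difference that a change of scaling leaves nearly fixed.

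POLRMT itself fell from 60.8, 45.9 and 61.6 CPM to 21.6, 15.4 and 16.4 CPM, and TFAM, which packages mitochondrial DNA, from 1000.4, 1026 and 1013 CPM to 419, 449.8 and 448 CPM. In neither gene did the groups overlap, and the log2 fold changes were -1.66 ± 0.14 and -1.21 ± 0.05. Of 11 tested regulators known for mitochondrial gene control 7 fell (63.6%) and 0 rose, with a median of -0.49. With library sizes alone 5 fell and 1 rose, with a median of -0.08, where 19.3% of all genes were lower and 54.5% higher. Among the fallers were the coactivator PPARGC1B (-1.80 ± 0.07), YY1 (-0.96 ± 0.05) and MYC (-3.89 ± 0.29). MYC stood at 5.91, 6.66 and 6.41 CPM untreated and 0.555, 0.392 and 0.303 CPM with A-485. Of the 2 targets of the drug, EP300 was not called (0.10 ± 0.13), at 1150, 1584 and 1664 CPM untreated and 1644, 1541 and 1539 CPM with A-485. CREBBP rose by 0.40 ± 0.06, from 75.1, 76.2 and 76.3 CPM to 102, 103 and 95.5 CPM.

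The cytosolic ribosomal proteins and the respiratory chain were compared in the same way. Of 82 cytosolic ribosomal protein genes 58 fell and 5 rose, a share of falls of 70.7% against 33.7% of all genes, with a median of -0.72. Of 77 nuclear-encoded respiratory chain genes 41 fell (53.2%) and 22 rose (28.6%, against 37.6% of all genes), with a median of -0.45. With library sizes alone 25 of the 77 fell and 27 rose, with a median of -0.04. The cytosolic ribosomal proteins then had 42 lower and 11 higher, with a median of -0.32, where 19.3% of all genes were lower and 54.5% higher. Relative to the median of all genes, the cytosolic ribosomal and respiratory chain medians were -0.80 and -0.53 with TMM scaling, against -0.96 for the mitochondrial ribosomal set. The differences between the lists were not tested.

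In the WSU-DLCL2 clones no mitochondrial ribosomal protein gene was called. Of 75 members tested by edgeR against the untreated libraries 0 were called higher and 0 lower, as were 0 of all 16152 genes (0.0% in each direction); DESeq2 and limma-voom also called 0 members, and DESeq2 called 60 genes higher and 255 lower over all. At an unadjusted p under 0.05 stood 1 member, against 6.92% of all genes. The median log2 difference, clones over untreated, was 0.13 for members and -0.01 for all genes, with 63 members above 0 and 12 below. Of all 16152 genes 7833 lay above 0 and 8319 below. The clones lay wholly above the untreated libraries for 12 members (background 7.96%) and wholly below for 1 (background 8.51%).

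The 95% interval of the difference lay within 2-fold in either direction for 70 of 75 members and excluded a 2-fold fall for 72. Over all tested genes, the interval lay within 2-fold for 9205 of 16152 (57.0%), against 93.3% of the members. The members were better counted: 72 of the 75 reached 10 CPM in the higher group, against 9153 of all 16152 genes. The median SE was 0.16 for members, 0.28 for all genes and 0.19 for all genes at that level. The share of intervals within 2-fold was not computed at matched level. The members' differences ran from -0.42 to 0.37 on the log2 scale. Genes with MRPL and MRPS symbols had medians of 0.13 and 0.12, or 0.08 in both without untreated replicate 3.

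MRPS34, a mitochondria-specific small-subunit protein, had the smallest unadjusted p. It stood at 98.2, 94.2 and 100.6 CPM in clones 1, 2 and 3 and at 74.4, 84.9 and 68.1 CPM in untreated replicates 1, 2 and 3, with no overlap. Its difference of 0.37 ± 0.12 had an unadjusted p of 0.023 and an adjusted p of 0.61 by edgeR, and it remained 0.30 ± 0.08 without untreated replicate 3 (adjusted p = 0.15, edgeR). MRPS6, a protein shared with bacteria, was the lowest at -0.42 ± 0.19, with 39.5, 33.2 and 37.8 CPM in the clones and 42.4, 43.1 and 62.1 CPM untreated, so the distance rested in part on replicate 3; without it the difference was -0.21 ± 0.10.

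MRPS11, of the small-subunit platform, had 48.4, 45.9 and 53.1 CPM in the clones and 37.6, 38.3 and 45.4 CPM untreated, a difference of 0.28 ± 0.13 that was 0.38 ± 0.09 without untreated replicate 3. MRPS25 had 162, 137 and 161 CPM against 123, 118 and 145 CPM (0.25 ± 0.13), with clone 2 below untreated replicate 3, without which the difference was 0.35 ± 0.10. MRPL55 had 21.1, 18.0 and 18.3 CPM against 16.3, 16.7 and 13.4 CPM (0.31 ± 0.17), and MRPL57 had 36.4, 36.1 and 39.5 CPM against 30.1, 33.3 and 33.3 CPM (0.21 ± 0.12). In MRPS11, MRPL55 and MRPL57 the groups did not overlap, and none of the 4 genes was called. Without untreated replicate 3, MRPL55 and MRPL57 stood at 0.22 ± 0.12 and 0.24 ± 0.09, and again none of the 4 was called.

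Of the members at least 2-fold lower in Karpas-422 none was called in the clones. With all 3 untreated libraries most of them lay above 0 there, as did 63 of all 75 members. Those below 0 were MRPL12, MRPL3, MRPS30 and MRPS35. MRPS34 was higher without overlap, as given above, and MRPL36 stood at 0.24 ± 0.17, or 0.16 ± 0.14 without untreated replicate 3. MRPL3 had 196, 153 and 181 CPM against 174, 182 and 189 CPM, a difference of -0.04 with a 95% interval from -0.34 to 0.27. MRPS12 had 37.0, 29.6 and 36.6 CPM against 26.8, 30.7 and 44.0 CPM (0.02, interval -0.50 to 0.54), and MRPL12 had 15.6, 15.7 and 16.2 CPM against 12.1, 15.2 and 21.1 CPM (-0.03, interval -0.57 to 0.52). The groups overlapped in all 3, with untreated replicate 3 the highest untreated value. Without that library the differences of MRPL3, MRPS12 and MRPL12 were -0.01, 0.26 ± 0.13 and 0.22 ± 0.13. MRPL41 stood at 0.09 ± 0.15 and MRPS2 at 0.16 ± 0.16, and the paralogs MRPS18A, MRPS18B and MRPS18C at 0.09, 0.14 and 0.16. Without replicate 3 these 5 stood at 0.07, 0.05, -0.06, -0.13 and 0.07, and none was called. Across the 71 members tested in both comparisons Spearman's rho of the log2 fold changes was 0.04, a value across genes with no library in common.

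Untreated replicate 3 stood apart from the other untreated libraries in many members. It lay below both other untreated libraries in 44 of 75 members and above both in 26, and was at least 1.5 times lower than their mean in 14 and higher in 6. Replicates 1 and 2 were 1.5 times apart in 1 member. MRPL33, for example, had 43.1, 43.1 and 19.4 CPM in untreated replicates 1, 2 and 3 and 44.3, 43.4 and 45.3 CPM in the clones. MRPS17 went the other way, with 11.6, 11.6 and 30.2 CPM untreated and 21.5, 12.7 and 20.2 CPM in the clones.

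Without replicate 3, the test again called 0 members, although it called 70 of 16607 genes higher (0.422%) and 281 lower (1.69%). At an unadjusted p under 0.05 stood 12 members of 75, against 19.0% of all genes. The median difference was 0.08, against 0.02 for all genes tested in both fits, with signs turned in 21 members. The interval excluded a 2-fold fall for all 75 and lay within 2-fold for 73. The clones lay wholly above the 2 remaining untreated libraries for 24 members (background 19.7%) and wholly below for 7 (background 20.5%). Among clones, clone 2 was the lowest in 46 members of 75 and clone 3 the highest in 38.

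**Figure D4:**
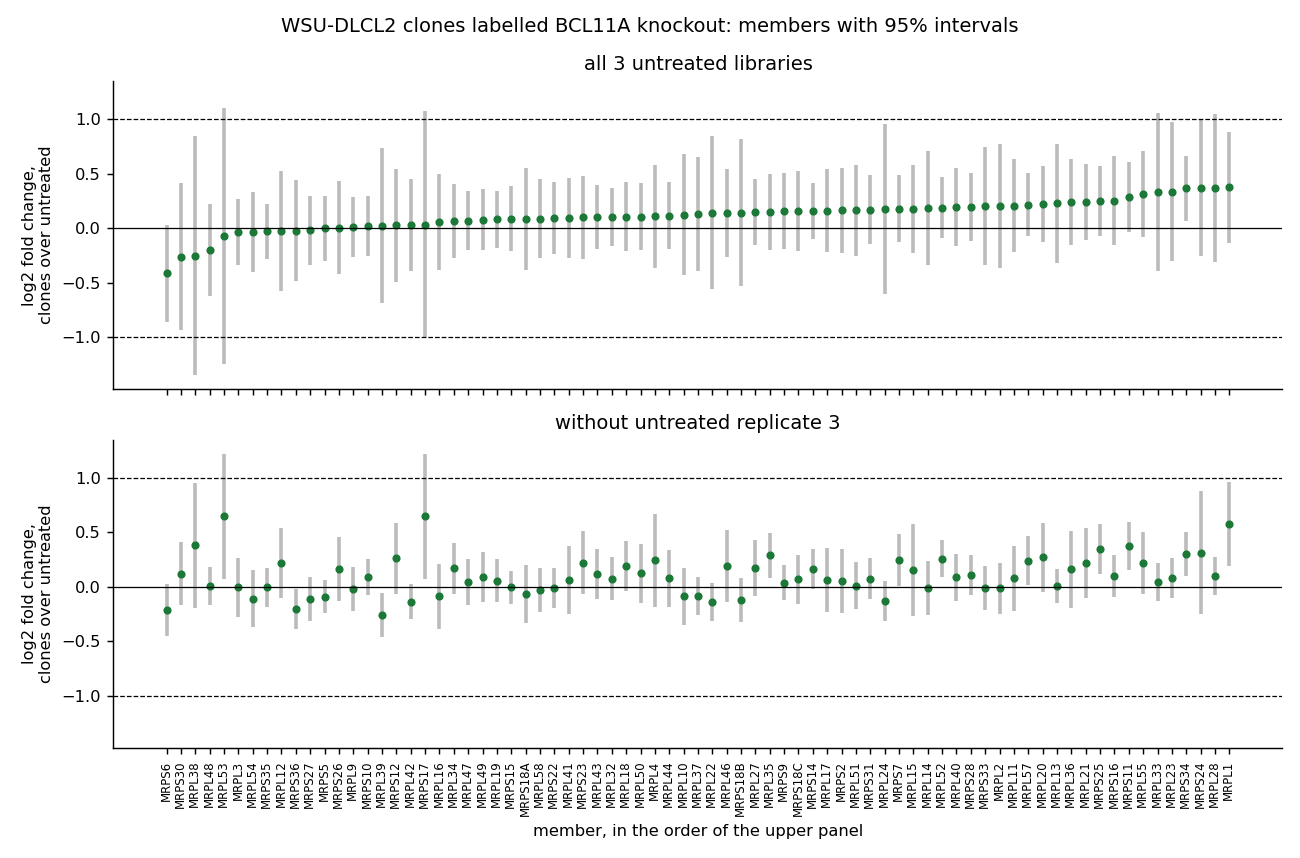
Log2 difference of each tested member, clones labelled BCL11A knockout over untreated WSU-DLCL2, with 95% intervals (bars), with all 3 untreated libraries (top) and without untreated replicate 3 (bottom); dashed lines mark 2-fold. All points lie within 2-fold of 0 in both panels; 70 of 75 intervals lie within 2-fold in the upper panel and 73 in the lower.

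The related lists were not called in the clones either. The respiratory chain had 71 of 80 tested genes above 0 with a median difference of 0.16, which became 0.02 without untreated replicate 3. The median of the cytosolic ribosomal proteins was -0.01 with that library and 0.02 without it, and that of the synthetase list 0.00 in both cases. POLRMT had 31.6, 29.7 and 31.0 CPM in clones and 27.9, 27.6 and 32.5 CPM untreated, and TFAM 250.1, 180.0 and 239.8 CPM against 193, 199 and 219.8 CPM, with overlapping groups in both.

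The A-485 libraries of WSU-DLCL2 were of the shallower kind and the untreated ones of the deeper kind, so in that line the drug and the kind of library cannot be told apart. They are set beside Karpas-422, with no test, as CPM by library size. The members together held 5759, 5911 and 5934 CPM in WSU-DLCL2 with A-485, 3905, 3909 and 3886 CPM in Karpas-422 with A-485, and 5853, 5560.3 and 5558 CPM in untreated Karpas-422. WSU-DLCL2 with A-485 thus lay near untreated Karpas-422 and above treated Karpas-422 in its summed level. Against untreated Karpas-422 both line and drug differ, and no untreated WSU-DLCL2 library of the shallower kind was at hand. These levels therefore do not show whether the members changed with A-485 in WSU-DLCL2. Unaligned reads were 14.1% to 14.6% in the WSU-DLCL2 libraries with A-485 and 2.51% to 2.86% in those of Karpas-422. Of 71 members it lay wholly above treated Karpas-422 for 44 (background 27.7%) and wholly below for 6 (background 46.2%); against untreated Karpas-422 these were 28 (background 44.4%) and 17 (background 27.0%).

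Single members differed in where they fell. MRPL3 had 91.6, 82.3 and 94.4 CPM in WSU-DLCL2 with A-485, overlapping the 88.9, 76.6 and 82.6 CPM of untreated Karpas-422 and above the 28.6, 32.7 and 29.2 CPM of treated Karpas-422. MRPS12 had 17.3, 19.6 and 20.1 CPM, between the 26.6 to 27.2 CPM of untreated and the 8.98 to 9.22 CPM of treated Karpas-422. MRPS26 lay between the groups as well, at 121, 171 and 156 CPM. MRPL52 had 21.5, 21.6 and 23.5 CPM, below the 34.4 to 37.7 CPM of treated Karpas-422 and above the 6.33 to 16.4 CPM of the untreated line.

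**Figure D5:**
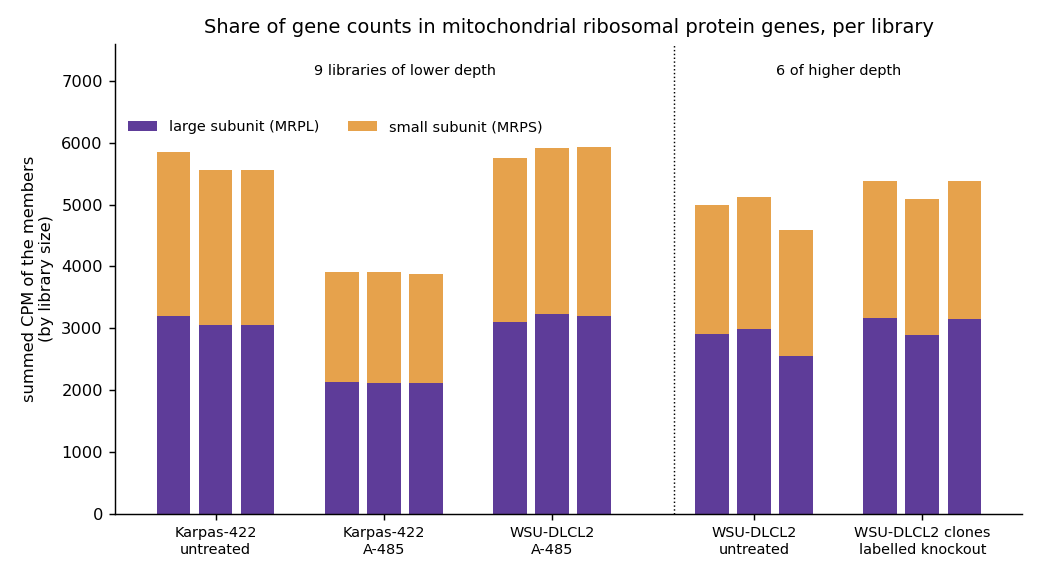
Summed CPM (by library size) of all 77 members in each of the 15 libraries, split by symbol into MRPL (large subunit) and MRPS (small subunit) genes. The 3 Karpas-422 libraries with A-485 sit at 3886 to 3909, below the 5558 to 5853 of the untreated line, and the dotted line separates the libraries of the 2 kinds, whose levels are not compared.

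The spread of levels over members differed between the kinds of library, so a difference in 1 gene's level between them is not read as a difference between the lines. In CPM per kilobase of exonic length, the upper quartile of the 77 members was 2.56 times the lower one in untreated WSU-DLCL2 and 22.6 times in untreated Karpas-422. MRPL15 had the highest level per kilobase in untreated WSU-DLCL2, at 93.3, and MRPS10 in untreated Karpas-422, at 314. MRPL28 stood at 24.4 and 0.072 in these groups, and MRPS16 at 47.9 and 0.41, so both were too low for the Karpas-422 test. Of members that rose with A-485, MRPS6 stood at 11.5 and 0.24 and MRPL52 at 16.7 and 3.22, but MRPL46 at 1.69 and 1.82. The fallers MRPL36 and MRPS34 stood at 30.1 and 3.15 and at 69.1 and 7.14. The part of these low levels in the A-485 results was not tested. Across 76 members, Spearman's rho of the ratio of the 2 groups with the number of annotated transcripts was -0.60. The other members with too few counts in Karpas-422 were MRPL30, MRPL55 and MRPL58, besides MRPS21; in the clones they were MRPL30 and MRPS21.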

How the data were processed

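The authors deposited raw read counts per gene in 15 files, 1 a library. The submitters' processing notes name STAR 2.5.3a, RSEM and GRCh37 (hg19). Counting program, annotation and strand were not given in the sources used here, so reads of overlapping or antisense genes cannot be told apart. Pseudogenes named after 33 of the 77 members may share reads with them. Of all reads listed, 27.3% to 70.2% were in the summary lines, which stayed out of library sizes. The 17 sample records include 3 runs of untreated WSU-DLCL2 replicate 3 that share 1 file.

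Identifiers were mapped with GENCODE 29 (GRCh38), used for names, gene types, transcript numbers and exonic lengths only. Each comparison (3 against 3) was fitted over all genes with edgeR 4.0.16 in R 4.3.3: TMM, filterByExpr, robust quasi-likelihood, two-sided, Benjamini-Hochberg adjustment, threshold 0.05. Errors of log2 fold changes are SE. Alternatives were other scalings, filters, DESeq2 1.42.0, limma-voom 3.58.1, a replicate block and each library left out. Fits were also run on simulated counts with the same dispersion for every gene and no library set apart. That setting is simpler than these data, so the run does not vouch for the fits given here. All replicates were kept as separate libraries, with no threshold set for counting 2 of them as 1. The lowest chi-square was 1.20 per gene, between A-485 replicates 2 and 3 of Karpas-422, where counting noise alone would give about 1. These 2 libraries thus differed by little more than counting noise.

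The members and gene lists were chosen with earlier results of these data known. Values per library are given in Karpas-422 or the clones for up to 8 called members per direction whose higher group reached 10 CPM, for the 6 smallest p where fewer than 3 were called, and for MRPS18A, MRPS18B, MRPS18C, MRPL12, MRPS12, MRPL3, MRPS2, MRPL41, BCL11A, EP300, CREBBP and MYC; of each related list up to 3 genes with the smallest p could be named. MRPL10, MRPL11, MRPL33, MRPL36, MRPS34 in Karpas-422, MRPL38, MRPS10, MRPS17, POLRMT, TFAM, OXA1L and members compared per kilobase were named after their values were seen.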

Additional observations from a re-analysis of the deposited data

How the results depend on the processing

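In Karpas-422 the members called lower numbered 38 to 48 over all alternatives. Those called higher numbered 17 with library sizes alone, and 5 to 10 with 1 library left out. The median log2 fold change of the members was -0.47 with library sizes alone, -0.93 with DESeq2 size factors and with DESeq2, -0.90 with at least 10 counts in every library of a group, -0.85 with limma-voom, -0.80 over protein-coding genes alone and -0.89 to -0.84 with 1 library left out. The cause of these shifts was not tested. With library sizes alone MRPS18B turned to 0.12 and MRPS18C became a called rise of 0.57. All genes called lower fell from 3998 to 2292 with library sizes alone. With the replicate number as a block, 45 members were lower and 10 higher, with a median of -0.85; same-numbered libraries correlated at 0.02, 0.06 and -0.04 in their deviations, and at 0.10, 0.03 and 0.23 in the clone comparison, so the numbers were not taken as pairs. In the clones 0 members were called under every alternative, the block included. Small differences turned in sign there. MRPL12 was at 0.042 with limma-voom and 0.011 with the block. With 1 library left out, MRPL12 ran from -0.19 to 0.22, MRPS12 from -0.12 to 0.26, MRPL3 from -0.12 to 0.069, MRPS18A from -0.065 to 0.18 and MRPS18B from -0.13 to 0.31. Without a filter, 1 gene was called higher and 19 lower in the clones; limma-voom called 2 lower. The shallower libraries, in which 1 count is 0.112 to 0.149 CPM, limit the weakly counted members.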
